A study of Equus caballus with 68 samples.

Results

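Of 35 genes of the red cell program chosen by symbol, 33 were listed in the expression table, each by 1 entry among 30371, and these 33 genes are described here. They are erythroid transcription factors and the erythropoietin receptor (7 genes), enzymes and mitochondrial carriers of heme synthesis (9 of 10), proteins of the red cell membrane and its skeleton (10 of 11), the hemoglobin chaperone and red cell enzymes (4) and genes of late red cell maturation (3). PPOX and GYPC are not analysed here. The rule used symbols alone, although the list was drawn up with earlier results of these data known. They were measured in bone marrow mononuclear cells (BMNC) of 8 adult Thoroughbred horses, 2 mares and 6 geldings aged 3 to 9 years, from sternal marrow purified on a density gradient. Cells were sequenced uncultured at 0 hours (8 libraries) or after culture in undiluted synovial fluid of the same horse, either normal fluid of the middle carpal joint (SF) or fluid of the radiocarpal joint inflamed with lipopolysaccharide (ISF). Each fluid has 7 horses at 48 hours and at 10 days, and 8 at both times between, 96 hours and 6 days, with no 48 hour culture of Moon and no 10 day culture of Flash, and with 1 library per horse, fluid and time. All cultured cells, in both fluids, had been detached with EDTA before RNA was extracted, and the fluids had been cleared of their own cells. Levels are GeTMM, a read count divided by gene length and scaled for library depth, so levels of different genes can be compared.

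Red cells arise in marrow from progenitors that respond to erythropoietin and express GATA1 and KLF1. These factors switch on the genes of hemoglobin, of heme synthesis and of the membrane skeleton, and the cell then loses its nucleus. Heme is built by a chain of enzymes that starts in the mitochondrion, continues in the cytosol and ends in the mitochondrion. Every nucleated cell makes some heme, so most of these enzymes are not particular to red cells, whereas ALAS2 is the erythroid form of the first enzyme.

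The number of reads assigned to genes, worked out from the spacing of the deposited values, was between 15700000 and 36000000 per library (median 22300000), and 1 read on a gene of 1 kilobase was worth 0.0337 to 0.0979 GeTMM. Values near or below this rest on single reads. By the genes that vary most between horses, 66 of 68 libraries lay nearest to others from the labelled horse. In ISF at 96 hours, the libraries labelled Dealings and Dreamer each lay nearest to the other horse of that pair (r = 0.925 and 0.927, against -0.242 and -0.181 with the labelled horse). Leaving both out changed no count of the 33 genes past the threshold except that in SF at 48 hours, which went from 30 to 29 as EPB41 lost its call (FDR = 0.0502). The SF library of Moon at 6 days had 12797 genes above 0, fewer than any other library, and held distant values for 10 of the 33 genes. Its values also summed to more GeTMM than those of any other library, and the highest worth of 1 read, 0.0979 GeTMM, was in it. Differences between the fluids called at 6 days are therefore given with and without this library. Ranges, medians, marker sums and ratios by horse at 6 days include it unless stated. Marrow is a mixture of cells, and in such bulk samples fewer cells of a type cannot be told apart from less RNA per cell.

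All 33 genes were above 0 in each of the 8 fresh libraries, at levels that differed widely among horses. AHSP, the chaperone of free alpha globin, had the highest median of the 33 genes, with between 51.9 and 826 GeTMM (median 332). NFE2, a transcription factor of erythroid, megakaryocytic and granulocytic cells, was next with between 152 and 263 GeTMM (median 222), followed by the mitochondrial iron importer SLC25A37 with between 118 and 724 GeTMM (median 155). At the lower end stood the urea transporter SLC14A1 with between 1.52 and 16.4 GeTMM (median 3.19) and the erythropoietin receptor EPOR with between 0.545 and 39.6 GeTMM (median 3.79). The highest value of a gene was on median 15.9 times its lowest among the 8 horses, and the ratio exceeded 4 for 27 of 33 genes (81.8%). Over the 13301 tested genes above 0 in all fresh libraries, the median ratio was 1.93 and 15.0% exceeded 4. The same horses stood at the extremes in most genes. Catnip and Moon held the 2 highest values for 28 of 33 genes, a pair that was highest for 7.02% of those 13301 genes, and Dreamer held the lowest value for 28 of 33, against 13.3%. KEL, the carrier of the Kell blood group antigen, was at 286 GeTMM in Moon, 197 in Catnip and 10.8 in Dreamer. EPOR differed most, 72.6-fold between Moon and Dreamer. SLC25A38, a mitochondrial glycine carrier needed for the first step of heme synthesis (1.22-fold), and NFE2 (1.73-fold), UROD (1.89-fold) and EPB41 (1.89-fold) differed least. No test was made of these differences, since each horse has 1 fresh library.

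**Figure D1:**
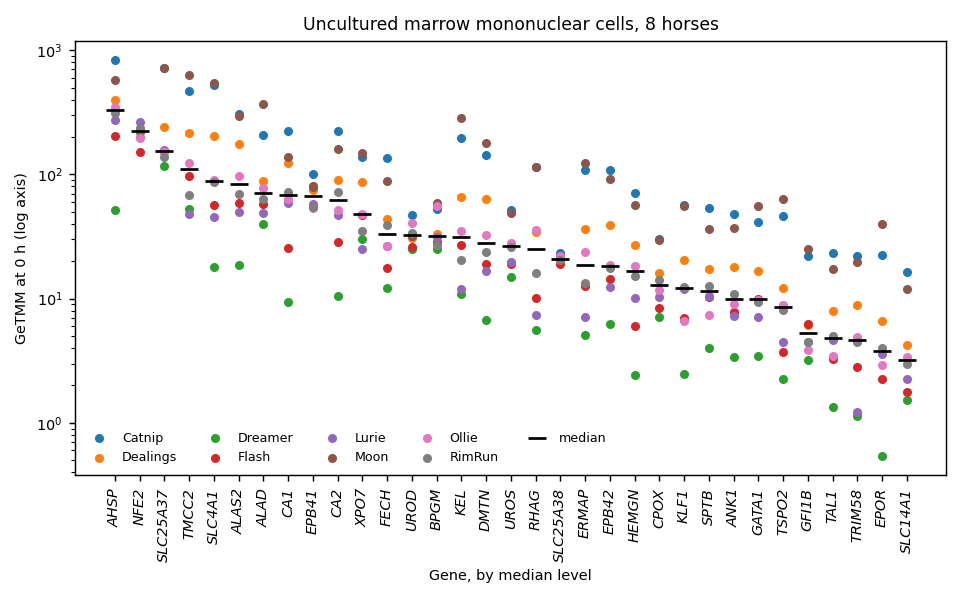
Level of each of the 33 genes in the 8 uncultured libraries (GeTMM, log axis), with 1 point per horse and a bar at the median, ordered by median. Catnip and Moon hold the 2 highest points for 28 genes and Dreamer holds the lowest for 28.

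Over the first 48 hours of culture most of this program fell, in both fluids. In SF, 29 of the 33 genes were lower than at 0 hours and 1 was higher, where 23.1% and 22.3% of all 14570 genes tested were called lower and higher. In ISF, 28 were lower (background 27.4%) and 0 were higher (25.3%). For the latter, 1 gene had a positive change at an unadjusted p under 0.05, and limma voom on recovered reads also called 1, UROD in both cases. Calls are from limma on log2(GeTMM + 1) at an adjusted p (FDR) under 0.05, fold changes are on that scale with their standard errors, and they understate the change of low genes. The median log2 fold change of the 33 genes was -2.87 in SF and -2.69 in ISF, against -0.01 and -0.03 over all genes tested. Every SF library lay below every fresh library for 22 of 33 genes (9.3% of all genes tested), and every ISF library did for 21 (12.6%). Both comparisons use the same 8 fresh libraries, so they are not independent. Genes were tested if they reached 0.5 GeTMM in 7 or more libraries. The fresh libraries alone met this for all 33 genes (lowest value 0.545 GeTMM, EPOR). Those near 0 in culture entered through the group where they are high and could only be called lower.

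Markers of other cells moved over the same interval. All 7 macrophage genes of a marker list were higher at 48 hours in both fluids, and their summed level went from between 184 and 307 GeTMM (median 212) at 0 hours to between 7548 and 13818 GeTMM (median 9361) in SF and between 14796 and 27364 GeTMM (median 22154) in ISF, with no overlap and no marker at 0. SPP1 was the largest part of the ISF sum, with medians of 10.3 GeTMM at 0 hours, 1441 in SF and 14535 in ISF. The medians of GPNMB (4951 in SF and 4270 in ISF) and MRC1 (110 and 62.4) were lower in ISF, and those of the other macrophage genes were higher there. Of 6 neutrophil precursor genes 3 were lower in SF and 2 in ISF, and their summed level went from between 11356 and 20997 GeTMM (median 14556) to between 819 and 4329 GeTMM (median 2904) in SF and between 1087 and 6083 GeTMM (median 3222) in ISF. LTF made up most of the fresh sum, with medians of 10095 GeTMM at 0 hours, 624 in SF and 177 in ISF. The medians of MPO were 682, 408 and 724, and those of the other genes were below the fresh median in both fluids. Of 5 T cell genes and of 5 progenitor genes, 4 each were lower in both fluids. The summed T cell genes went from between 127 and 321 GeTMM (median 199.8) to between 38.8 and 233 GeTMM (median 103.965) in SF and between 29.8 and 123 GeTMM (median 67.2) in ISF, and the progenitor genes from between 53.9 and 88.8 GeTMM (median 66.1) to between 15.2 and 45.7 GeTMM (median 21.8) and between 16.8 and 34.2 GeTMM (median 30.6), below the fresh range. No gene of these lists was at 0 throughout a group. The part of such shifts in the fall of the red cell genes, TAL1 included, was not tested.

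**Figure D2:**
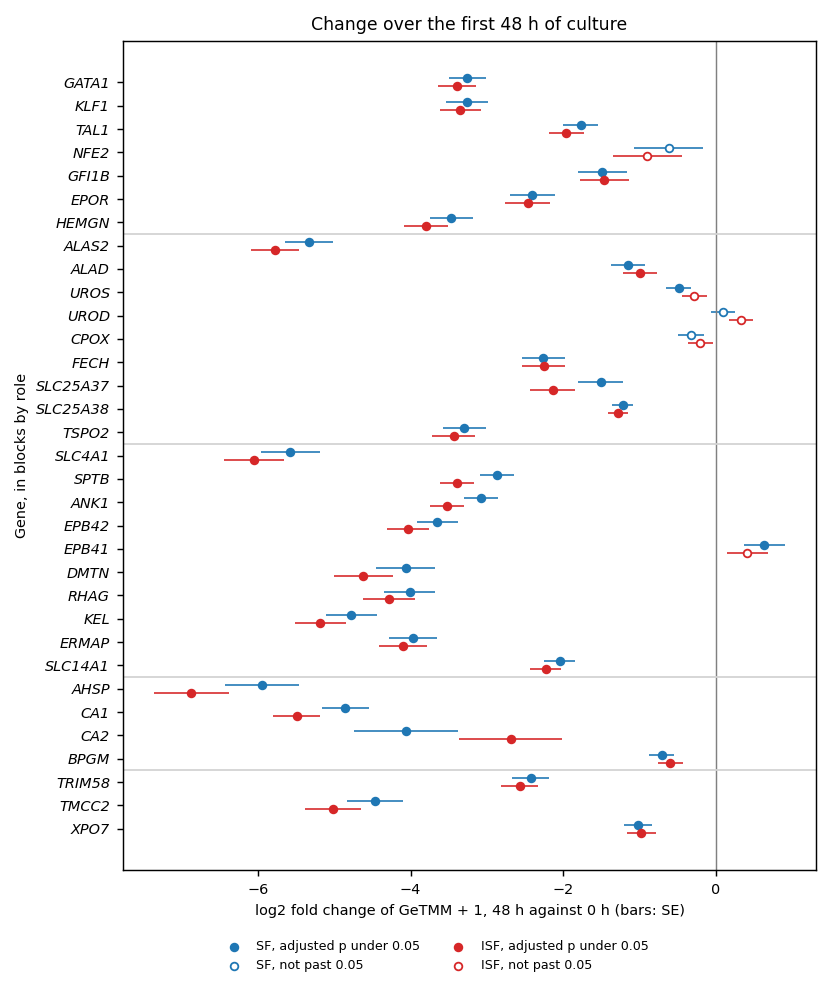
Log2 fold change of GeTMM + 1 from 0 to 48 hours for the 33 genes in blocks by role, with standard errors, in SF (blue) and ISF (red). Filled points passed an adjusted p of 0.05. The lowest points are AHSP at -5.95 in SF and -6.87 in ISF, and EPB41 is the gene that lies highest in both.

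Of the 7 transcription factor and receptor genes, 6 were lower at 48 hours in each fluid. GATA1 (ENSECAG00000037888), the central erythroid and megakaryocytic factor, was between 3.43 and 55.3 GeTMM (median 9.87) at 0 hours, between 0 and 1.43 GeTMM (median 0.395) in SF and between 0.101 and 0.988 GeTMM (median 0.3196) in ISF. Its culture ranges lay below the fresh range, with log2 fold changes of -3.25 ± 0.25 (FDR = 1.4e-17) and -3.40 ± 0.25 (FDR = 1.7e-18). KLF1 (ENSECAG00000027715), the activator of adult globin genes, was between 2.47 and 56.7 GeTMM (median 12.2) at 0 hours, between 0.3404 and 0.904 GeTMM (median 0.619) in SF and between 0.172 and 0.802 GeTMM (median 0.499) in ISF. It also left the fresh range, by -3.26 ± 0.27 (FDR = 7.48e-16) and -3.35 ± 0.27 (FDR = 1.94e-16). HEMGN (ENSECAG00000011425), a nuclear protein of blood cell progenitors, went from between 2.42 and 70.4 GeTMM (median 16.6) to between 0.04303 and 2.33 GeTMM (median 0.4900) in SF and between 0.0663 and 0.992 GeTMM (median 0.207) in ISF. It had the strongest fall of this group, -3.47 ± 0.28 (FDR = 2.99e-16) and -3.80 ± 0.28 (FDR = 4.93e-18). EPOR (ENSECAG00000008049) went from between 0.545 and 39.6 GeTMM (median 3.79) to between 0 and 0.794 GeTMM (median 0.197) in SF and between 0.0387 and 0.695 GeTMM (median 0.114) in ISF. Its ranges overlapped at the fresh value of Dreamer, and it was lower in all 7 horses, by -2.40 ± 0.30 (FDR = 4.97e-10) and -2.46 ± 0.30 (FDR = 1.63e-10).

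TAL1, NFE2 and GFI1B kept more of their fresh level at 48 hours. TAL1, a partner of GATA1 that megakaryocytes and progenitors also use, went from between 1.35 and 23.3 GeTMM (median 4.83) to between 0.272 and 1.73 GeTMM (median 1.43) in SF and between 0.312 and 1.27 GeTMM (median 0.892) in ISF, changes of -1.77 ± 0.23 (FDR = 2.76e-09) and -1.96 ± 0.23 (FDR = 9.78e-11). GFI1B, a repressor of erythroid and megakaryocytic cells, went from between 3.21 and 25.1 GeTMM (median 5.297) to between 1.09 and 2.71 GeTMM (median 2.12) in SF and between 0.275 and 9.17 GeTMM (median 1.97) in ISF, changes of -1.49 ± 0.32 (FDR = 0.000113) and -1.46 ± 0.32 (FDR = 0.000116). In ISF the highest GFI1B value lay inside the fresh range. NFE2 (ENSECAG00000024536) was between 86.3 and 204 GeTMM (median 153) in SF and between 76.3 and 157 GeTMM (median 118) in ISF, and its changes of -0.61 ± 0.45 (FDR = 0.274) and -0.90 ± 0.45 (FDR = 0.089) did not pass the threshold. It passed in both fluids when only the groups compared were fitted (FDR = 0.00889 in SF and 0.000137 in ISF), and its level was lower than at 0 hours in all 7 horses. The summed level of 9 megakaryocyte and platelet genes, which share these factors, was between 694 and 1231 GeTMM (median 898) at 0 hours, between 258 and 817 GeTMM (median 528) in SF and between 305 and 946 GeTMM (median 594) in ISF at 48 hours, with overlapping ranges and 1 of the 9 genes at 0 in each culture group. Of the 6 of them that were tested, 3 were lower and 1 higher in SF, and 2 lower and 1 higher in ISF. The sum joins opposite moves. The median of SELP went up from 105 GeTMM at 0 hours to 249 in SF and 317 in ISF. That of PPBP went down from 777 to 152 and 248, and that of GP9 from 58.9 to 15.1 and 23.2. The part of the megakaryocyte and platelet genes in the values of TAL1, NFE2 and GFI1B was not tested.

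The heme synthesis genes split by enzyme. ALAS2 (ENSECAG00000000068), the erythroid enzyme of the first step, was between 18.5 and 306 GeTMM (median 82.97) at 0 hours, between 0 and 6.17 GeTMM (median 1.37) in SF and between 0.02199 and 2.99 GeTMM (median 0.604) in ISF. Within horses, a median of 0.951% of the fresh level was left in SF and 0.929% in ISF, and the log2 fold changes were -5.33 ± 0.32 (FDR = 2.51e-22) and -5.78 ± 0.32 (FDR = 4.44e-24). TSPO2 (ENSECAG00000006158), an erythroid relative of a mitochondrial outer membrane protein, went from between 2.26 and 63.9 GeTMM (median 8.48) to between 0 and 0.785 GeTMM (median 0.102) in SF and between 0 and 0.386 GeTMM (median 0) in ISF, changes of -3.29 ± 0.28 (FDR = 8.14e-16) and -3.44 ± 0.28 (FDR = 1.17e-16). FECH (ENSECAG00000012137), which inserts iron in the last step, went from between 12.2 and 135 GeTMM (median 32.9) to between 4.94 and 9.35 GeTMM (median 6.74) in SF and between 5.498 and 8.31 GeTMM (median 6.77) in ISF. It fell by -2.26 ± 0.28 (FDR = 7.18e-10) and -2.25 ± 0.28 (FDR = 5.62e-10), and kept a median of 23.9% of the fresh level in either. SLC25A37 (ENSECAG00000013319) went from between 118 and 724 GeTMM (median 155) to between 45.5 and 152 GeTMM (median 84.3) in SF and between 31.2 and 122 GeTMM (median 45.6) in ISF, changes of -1.51 ± 0.30 (FDR = 2.78e-05) and -2.14 ± 0.30 (FDR = 1.24e-08), with ranges that overlapped the fresh range.

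Of the enzymes between ALAS2 and FECH, ALAD fell in both fluids and UROS in SF, and UROD and CPOX did not pass. ALAD, the second enzyme, went from between 39.7 and 371 GeTMM (median 70.8) to between 31.4 and 51.9 GeTMM (median 37.9) in SF and between 39.3 and 49.5 GeTMM (median 43.97) in ISF, changes of -1.15 ± 0.23 (FDR = 2.29e-05) and -0.99 ± 0.23 (FDR = 0.000165). UROS, which closes the ring, was between 14.9 and 51.5 GeTMM (median 26.4) at 0 hours and between 12.1 and 24.9 GeTMM (median 19.9) in SF, and was lower there at -0.49 ± 0.16 (FDR = 0.0126). That call was lost without Catnip (FDR = 0.223), with voom (FDR = 0.0828) and with only the groups compared (FDR = 0.105). In ISF UROS was at -0.28 ± 0.16 (FDR = 0.148). UROD, which removes carboxyl groups from uroporphyrinogen, was between 24.9 and 47.04 GeTMM (median 32.5) at 0 hours, between 28.4 and 43.1 GeTMM (median 35.3) in SF and between 37.5 and 52.5 GeTMM (median 40.04) in ISF. Its values of 0.10 ± 0.15 (FDR = 0.644) and 0.33 ± 0.15 (FDR = 0.0656) did not pass. The one in ISF passed with horse as a block (log2 fold change 0.37, FDR = 0.0281), with voom (0.50, FDR = 0.00113), with only the groups compared (FDR = 0.0307), without Moon (FDR = 0.0174) and without the 6 day SF library of Moon (FDR = 0.0085). CPOX, the enzyme that follows UROD, was between 7.17 and 30.2 GeTMM (median 12.9) at 0 hours, between 8.91 and 12.9 GeTMM (median 10.9) in SF and between 9.44 and 14.1 GeTMM (median 12.1) in ISF, with -0.32 ± 0.17 (FDR = 0.112) and -0.20 ± 0.17 (FDR = 0.331), and in SF it passed as lower without Dreamer (FDR = 0.0369). SLC25A38 (ENSECAG00000020785) was even among fresh libraries, between 19.1 and 23.3 GeTMM (median 20.8), and fell below that range to between 5.57 and 11.3 GeTMM (median 9.11) in SF and between 5.25 and 10.6 GeTMM (median 8.2) in ISF, by -1.22 ± 0.14 (FDR = 2.11e-11) and -1.28 ± 0.14 (FDR = 3.19e-12).

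Of the 10 membrane and skeleton genes, 9 fell in each fluid. SLC4A1 (ENSECAG00000000527), the anion exchanger band 3, was between 17.9 and 547 GeTMM (median 87.9) at 0 hours, between 0.0601 and 9.01 GeTMM (median 0.689) in SF and between 0.0691 and 4.74 GeTMM (median 0.3400) in ISF. A median of 1.53% and 0.565% of the fresh level of a horse was left, and the changes were -5.58 ± 0.39 (FDR = 3.34e-19) and -6.06 ± 0.39 (FDR = 6.66e-21). KEL (ENSECAG00000010525) went from between 10.8 and 286 GeTMM (median 31.2) to between 0.0741 and 2.41 GeTMM (median 0.2798) in SF and between 0 and 0.895 GeTMM (median 0.0485) in ISF, changes of -4.78 ± 0.33 (FDR = 3.24e-19) and -5.18 ± 0.33 (FDR = 6.74e-21). RHAG (ENSECAG00000012957), the Rh-associated glycoprotein, went from between 5.58 and 115 GeTMM (median 25.1) to between 0 and 3.45 GeTMM (median 0.128) in SF and between 0 and 1.697 GeTMM (median 0.0846) in ISF, changes of -4.01 ± 0.34 (FDR = 6.7e-16) and -4.28 ± 0.34 (FDR = 3.48e-17). All 3 culture ranges lay below the fresh ranges in both fluids. DMTN (ENSECAG00000000791), the actin-bundling protein dematin, went from between 6.78 and 179.9 GeTMM (median 28.2) to between 0.393 and 3.51 GeTMM (median 1.26) in SF and between 0.0604 and 1.498 GeTMM (median 0.476) in ISF, changes of -4.07 ± 0.39 (FDR = 1e-13) and -4.62 ± 0.39 (FDR = 5.53e-16). SPTB (beta spectrin), ANK1 (ankyrin), EPB42 (protein 4.2), ERMAP (the Scianna antigen) and SLC14A1 changed by -2.05 ± 0.21 (SLC14A1) to -3.97 ± 0.32 (ERMAP) in SF and by -2.23 ± 0.21 (SLC14A1) to -4.10 ± 0.32 (ERMAP) in ISF, each past the threshold.

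EPB41 (ENSECAG00000022255), protein 4.1, which links spectrin and actin and has forms in many cells, was the exception. It was between 53.8 and 102 GeTMM (median 66.5) at 0 hours, between 83.9 and 126 GeTMM (median 111) in SF and between 66.7 and 107 GeTMM (median 93.8) in ISF. It was higher in all 7 horses in SF and in 6 of 7 in ISF, with overlapping ranges, and the changes were 0.64 ± 0.27 (FDR = 0.0467) and 0.41 ± 0.27 (FDR = 0.198). The call in SF was lost with horse as a block (log2 fold change 0.57, FDR = 0.0694), with voom (0.78, FDR = 0.056), with a pseudocount of 0.1, without the filter on low values and without any 1 horse other than Moon (FDR = 0.0568 to 0.126). In ISF EPB41 passed with only the groups compared (FDR = 0.023), without Moon (FDR = 0.0162) and without the 6 day SF library of Moon (FDR = 0.0183).

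Among the hemoglobin chaperone and the red cell enzymes, all 4 genes fell in both fluids. AHSP (ENSECAG00000010406) was between 51.9 and 826 GeTMM (median 332) at 0 hours, between 0 and 18.5 GeTMM (median 2.17) in SF and between 0 and 10.1 GeTMM (median 0.636) in ISF. This was the largest fitted fall of the 33 genes, -5.95 ± 0.49 (FDR = 2.53e-16) and -6.87 ± 0.49 (FDR = 4.14e-19). The scale of the fit limits the fall of genes with lower fresh levels. It therefore does not rank the genes by the share of the fresh level left. CA1 (ENSECAG00000009144), the abundant carbonic anhydrase of red cells, went from between 9.41 and 226 GeTMM (median 67.7) to between 0 and 3.86 GeTMM (median 0.749) in SF and between 0 and 1.63 GeTMM (median 0.4502) in ISF, changes of -4.86 ± 0.31 (FDR = 3.42e-21) and -5.49 ± 0.31 (FDR = 1.07e-23). CA2 (ENSECAG00000016228), a carbonic anhydrase that other cells such as osteoclasts use too, went from between 10.5 and 225 GeTMM (median 62.1) to between 0.527 and 5.47 GeTMM (median 2.99) in SF and between 1.77 and 41.9 GeTMM (median 8.71) in ISF. It fell below the fresh range in SF, by -4.06 ± 0.68 (FDR = 1.1e-06), and overlapped it in ISF, where it fell by -2.69 ± 0.68 (FDR = 0.000657). BPGM (ENSECAG00000000655), the enzyme of 2,3-bisphosphoglycerate, changed least, from between 25.00 and 58.7 GeTMM (median 32.1) to between 15.3 and 30.1 GeTMM (median 24.4) in SF and between 18.01 and 29.9 GeTMM (median 25.5) in ISF, by -0.71 ± 0.17 (FDR = 0.0003) and -0.59 ± 0.17 (FDR = 0.00194).

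The 3 late maturation genes fell as well. TMCC2 (ENSECAG00000012264), a transmembrane and coiled-coil protein, went from between 47.6 and 632 GeTMM (median 110.1) to between 1.07 and 11.4 GeTMM (median 5.16) in SF and between 1.69 and 9.96 GeTMM (median 3.097) in ISF, changes of -4.47 ± 0.37 (FDR = 2.52e-16) and -5.02 ± 0.37 (FDR = 1.41e-18). TRIM58 (ENSECAG00000000552), a ubiquitin ligase with a role in loss of the nucleus, went from between 1.13 and 22.2 GeTMM (median 4.68) to between 0 and 0.861 GeTMM (median 0.0596) in SF and between 0 and 0.3602 GeTMM (median 0) in ISF, changes of -2.43 ± 0.24 (FDR = 3.87e-13) and -2.57 ± 0.24 (FDR = 3.64e-14). Both left the fresh range. XPO7 (ENSECAG00000023304), a nuclear exporter, went from between 25.04 and 148 GeTMM (median 47.6) to between 24.9 and 33.5 GeTMM (median 27.8) in SF and between 25.5 and 31.1 GeTMM (median 28.3) in ISF. It fell by -1.02 ± 0.19 (FDR = 7.66e-06) and -0.97 ± 0.19 (FDR = 1.29e-05). The fresh libraries of Moon and Catnip were highest, at 148 and 137, and the medians in culture lay near the lowest fresh value of 25.0.

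Further genes of the pathway were taken from lists chosen by name. Of the globin list, HBA (ENSECAG00000032728) and HBA2 (ENSECAG00000031859) were tested. HBA went from between 1209 and 16479 GeTMM (median 4431) to between 8.901 and 413 GeTMM (median 103) in SF and between 10.5 and 219 GeTMM (median 48.1) in ISF, by -5.97 ± 0.59 (FDR = 3.12e-13) and -6.62 ± 0.59 (FDR = 4.92e-15). HBA2 went from between 985 and 16652 GeTMM (median 4401) to between 5.65 and 311 GeTMM (median 85.5) and between 5.805 and 209.8 GeTMM (median 42.2), by -6.18 ± 0.72 (FDR = 1.07e-10) and -6.98 ± 0.72 (FDR = 1.39e-12). The alpha globin genes are near-identical copies, so how their reads were divided is uncertain. The counts of the further lists stand against the backgrounds at 48 hours, 23.1% lower and 22.3% higher in SF, and 27.4% lower and 25.3% higher in ISF. Of 13 tested genes for other steps of heme synthesis and its iron supply, 3 were lower and 2 higher in SF, and 4 were lower and 2 higher in ISF, shares near or under these backgrounds. Those called in both fluids included the mitochondrial transporter ABCB10 (-0.98 ± 0.21 in SF and -1.36 ± 0.21 in ISF), the porphyrin transporter ABCB6 (-0.72 ± 0.21 and -0.86 ± 0.21) and the iron importer SLC11A2, which rose (1.03 ± 0.20 and 1.65 ± 0.20). ALAS1, the form of the first enzyme in other tissues, was between 38.2 and 64.3 GeTMM (median 52.5) at 0 hours and between 49.03 and 64.5 GeTMM (median 53.8) in SF, with 0.14 ± 0.18 (FDR = 0.542). In ISF it was between 46.7 and 78.8 GeTMM (median 59.7), with 0.20 ± 0.18 (FDR = 0.357).

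Of 15 other membrane genes, 9 were lower in each fluid, with 2 higher in SF and 4 in ISF, the latter near or under the background. Among the lowest were ADD2, beta adducin (-3.15 ± 0.22 in SF and -3.18 ± 0.22 in ISF), and the adhesion molecule ICAM4 (-2.09 ± 0.21 and -2.16 ± 0.21). The highest of the 11 called in both fluids were the transporter ABCG2 (1.45 ± 0.25 and 0.91 ± 0.25), TPM1, a tropomyosin (0.67 ± 0.11 and 0.44 ± 0.11), and then STOM, stomatin, which fell (-0.59 ± 0.25 and -0.60 ± 0.25). Of 19 other regulators, 12 were lower in each fluid, with 3 higher in SF and 2 in ISF. Among the 13 called in both fluids, SOX6 (-1.48 ± 0.18 and -1.66 ± 0.18), the GATA1 cofactor ZFPM1 (-1.30 ± 0.26 and -1.58 ± 0.26) and the ubiquitin enzyme UBE2O (-1.50 ± 0.24 and -1.33 ± 0.24) were lowest. Of the same 13, the survival gene BCL2L1 (0.80 ± 0.18 and 1.49 ± 0.18) and NFE2L1 (0.80 ± 0.23 and 1.12 ± 0.23) were highest, followed by STAT5A, which fell (-0.45 ± 0.10 and -0.46 ± 0.10). Of 13 other red cell enzyme and maturation genes, 8 were lower in SF and 9 in ISF, with 3 higher in each, the latter near the background. Among those that fell were peroxiredoxin 2, PRDX2 (-4.58 ± 0.45 and -4.82 ± 0.45), and RNF10 (-0.75 ± 0.10 and -1.02 ± 0.10). TNS1 (2.07 ± 0.24 and 1.31 ± 0.24), BLVRB, biliverdin reductase B (1.06 ± 0.27 and 0.75 ± 0.27), and SEC23B (0.63 ± 0.10 and 0.97 ± 0.10) rose.

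The intervals after 48 hours held few calls, and genes already near 0 at 48 hours had little room to fall further. From 48 to 96 hours 8 of the 33 genes fell in SF (background 15.8%) and 0 rose (11.5%), where 1 had a positive change at an unadjusted p under 0.05 and voom called 0. They were ALAS2 (-1.03 ± 0.32), SLC4A1 (-1.13 ± 0.39), EPB42 (-0.78 ± 0.27), AHSP (-1.48 ± 0.49) and CA1 (-0.94 ± 0.31), and SLC25A37 (-1.21 ± 0.30), EPB41 (-1.35 ± 0.27) and NFE2 (-1.78 ± 0.45). Without RimRun 3 of 33 passed, and without Ollie 5. In ISF 2 fell (background 10.4%), EPB41 (-1.54 ± 0.27, FDR = 1.95e-05) and NFE2 (-1.70 ± 0.45, FDR = 0.00409), and 0 rose (8.54%), with none at an unadjusted p under 0.05 and 0 by voom. The number of genes called was 4 with horse as a block, 5 with voom and 7 with a pseudocount of 0.1 or with only the groups compared, where FECH (0.34, FDR = 0.0204) and ALAD (0.28, FDR = 0.0289) were among them and were higher. Whether the fluids differed in this interval was not tested. ALAS2 at 96 hours was between 0.01696 and 0.437 GeTMM (median 0.0407) in SF and between 0 and 0.169 GeTMM (median 0.0409) in ISF, and SLC4A1 was between 0 and 0.291 GeTMM (median 0.05205) and between 0 and 0.204 GeTMM (median 0.0159).

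**Figure D3:**
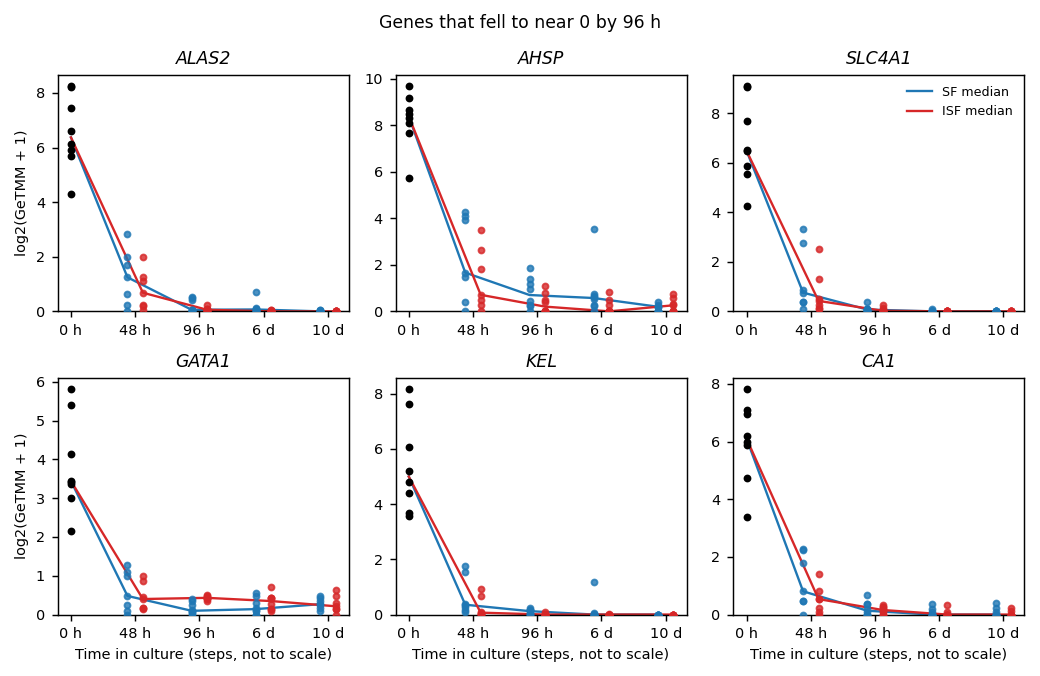
Level of 6 erythroid genes as log2(GeTMM + 1) at each time, with 1 point per library and lines through the medians of SF (blue) and ISF (red), from the shared fresh libraries (black). All 6 fell by 48 hours and lay near 0 from 96 hours on, and the single high SF points of AHSP and KEL at 6 days are the library of Moon.

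From 96 hours to 6 days EPB41 (-0.98 ± 0.26, FDR = 0.0136) and NFE2 (-1.61 ± 0.43, FDR = 0.0159) fell again in ISF, 2 of 33 (background 3.54%), and 0 rose (2.83%), with none at an unadjusted p under 0.05 and 0 by voom. Neither passed without Dealings or without RimRun, and without Ollie only EPB41 did. In SF 0 fell (1.61%) and 0 rose (0.432%). There 3 had a negative and 1 a positive change at an unadjusted p under 0.05, voom called 0, and with horse as a block 2 fell, EPB41 (-0.85, FDR = 0.0477) and SLC25A37 (-0.85, FDR = 0.0455). From 6 to 10 days NFE2 was the 1 gene called, in ISF (-2.36 ± 0.45, FDR = 0.000197, background 5.44% lower and 5.09% higher) and in SF (-1.74 ± 0.45, FDR = 0.0162, background 1.59% and 3.19%). The SF call was lost without Dreamer (FDR = 0.0739), without Ollie (FDR = 0.0569), with only the groups compared (FDR = 0.389) and without the 6 day SF library of Moon (FDR = 0.0547). No gene rose past the threshold in either fluid in this interval, where 1 in SF and 2 in ISF had a positive change at an unadjusted p under 0.05 and voom called 0. With horse as a block CA2 rose in SF (1.95, FDR = 0.0104).

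Over the whole culture, from 0 hours to 10 days, 30 of the 33 genes fell in SF (background 34.9%) and 0 rose (34.7%), with none at an unadjusted p under 0.05 and 0 by voom. In ISF 29 fell (38.4%) and 1 rose (36.1%). The median log2 fold change of the 33 genes was -3.23 in SF and -3.43 in ISF, against -0.01 and -0.03 over all genes. Every 10 day library lay below every fresh library for 23 genes in SF (19.4% of all genes) and for 24 in ISF (24.3%). SLC4A1, RHAG and KEL had no read in any of the 14 libraries of 10 days, ALAS2 and ANK1 had none in ISF, and TSPO2 had none in SF. With 3 reads per library as the floor, the fresh median of SLC4A1 was at least 1371-fold higher than ISF and at least 1606-fold higher than SF at 10 days. The fresh median was at least 1016-fold higher for ALAS2 (ISF), at least 347-fold for KEL (ISF) and at least 234-fold for RHAG (ISF). AHSP fell to between 0 and 0.337 GeTMM (median 0.147) in SF and between 0 and 0.698 GeTMM (median 0.198) in ISF, at most 3 reads in a library. GATA1 at 10 days was between 0.0665 and 0.385 GeTMM (median 0.204) in SF and between 0 and 0.544 GeTMM (median 0.1596) in ISF, and KLF1 was between 0.2600 and 1.01 GeTMM (median 0.636) and between 0.265 and 1.24 GeTMM (median 0.4305).

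After 48 hours NFE2 and EPB41 fell in both fluids, although neither had been called lower by then. SLC25A37 fell further in SF, while in ISF it passed in no later interval (48 to 96 hours -0.77 ± 0.30 (FDR = 0.0627)). NFE2 went from a fresh median of 222 GeTMM to between 15.2 and 61.1 GeTMM (median 46.2) at 96 hours in SF and between 13.9 and 68.5 GeTMM (median 32.3) in ISF, then to between 0.188 and 33.2 GeTMM (median 7.81) and between 0.0813 and 2.32 GeTMM (median 1.39) at 10 days. Its changes over the culture were -5.14 ± 0.45 (FDR = 9.89e-16) and -6.56 ± 0.45 (FDR = 2.11e-20). EPB41 was between 16.3 and 35.9 GeTMM (median 21.8) in SF and between 11.04 and 15.4 GeTMM (median 12.2) in ISF at 10 days, below the fresh range, by -1.53 ± 0.27 (FDR = 1.14e-06) and -2.34 ± 0.27 (FDR = 1.18e-11). SLC25A37 was between 12.3 and 37.3 GeTMM (median 23.3) and between 16.5 and 30.7 GeTMM (median 20.4), by -3.38 ± 0.30 (FDR = 1.69e-15) and -3.43 ± 0.30 (FDR = 5.93e-16). TAL1 was at -2.52 ± 0.23 in SF and -2.68 ± 0.23 in ISF, and GFI1B at -2.90 ± 0.32 and -2.80 ± 0.32, each past the threshold. Over the same time the megakaryocyte and platelet genes fell to a sum between 2.22 and 89.7 GeTMM (median 15.2) in SF and between 3.59 and 13.98 GeTMM (median 12.03) in ISF, and the neutrophil precursor genes to between 2.15 and 1648 GeTMM (median 173) and between 0.759 and 63.7 GeTMM (median 18.2). Their part in the fall of NFE2, TAL1 and GFI1B was not tested.

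UROD and CPOX were not lower than at 0 hours by this test at 48 hours or 10 days. At 10 days UROD was between 27.00 and 40.7 GeTMM (median 36.9) in SF and between 24.6 and 38.8 GeTMM (median 34.02) in ISF, with 0.10 ± 0.15 (FDR = 0.564) and -0.04 ± 0.15 (FDR = 0.837). CPOX was between 11.9 and 18.4 GeTMM (median 14.8) in SF, with 0.06 ± 0.17 (FDR = 0.78). In ISF it was between 16.7 and 30.1 GeTMM (median 18.98) and was the 1 gene that rose over the culture, by 0.56 ± 0.17 (FDR = 0.00247), a call lost with only the groups compared (FDR = 0.0702). UROS was at -0.13 ± 0.16 (FDR = 0.479) in ISF and was lower in SF at -0.38 ± 0.16 (FDR = 0.038), a call lost with voom (FDR = 0.152), with only the groups compared (FDR = 0.146), without the filter on low values (FDR = 0.0516) and without Catnip, Moon, Ollie or RimRun (FDR = 0.068 to 0.205). FECH was between 9.74 and 12.7 GeTMM (median 10.98) in SF and between 10.2 and 15.9 GeTMM (median 13.3) in ISF, above its 48 hour medians of 6.74 and 6.77, and remained below 0 hours by -1.63 ± 0.28 (FDR = 8.3e-07) and -1.42 ± 0.28 (FDR = 9.7e-06). ALAD (-0.72 ± 0.23 and -0.60 ± 0.23), SLC25A38 (-1.04 ± 0.14 and -1.04 ± 0.14), BPGM (-0.82 ± 0.17 and -1.09 ± 0.17) and XPO7 (-0.85 ± 0.19 and -0.77 ± 0.19) were the other genes whose called fall was weaker than that of FECH in both fluids. ALAD lost its call with only the groups compared (FDR = 0.103 in SF and 0.155 in ISF) and without Catnip (FDR = 0.0505 and 0.116), and in ISF also without Moon (FDR = 0.178).

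The medians of CA2 climbed after 48 hours, although no interval passed without a horse term. It was between 1.08 and 6.11 GeTMM (median 3.68) in SF and between 3.37 and 89.6 GeTMM (median 18.7) in ISF at 96 hours, between 1.001 and 22.4 GeTMM (median 8.73) and between 14.9 and 279 GeTMM (median 24.9) at 6 days, and between 9.68 and 258 GeTMM (median 26.5) and between 25.01 and 273 GeTMM (median 123) at 10 days. The median at 10 days in ISF was above the fresh median of 62.1, while the median in SF was below it, and neither difference from 0 hours passed (-0.64 ± 0.68, FDR = 0.403 in SF and 0.80 ± 0.68 (FDR = 0.283) in ISF). In SF at 6 days the lowest value, 1.001 GeTMM, was that of Moon, and the other libraries lay between 7.12 and 22.4 GeTMM. Horses differed widely, from 9.68 to 258 GeTMM in SF at 10 days. CA1, its erythroid relative, was between 0 and 0.307 GeTMM (median 0) in SF and between 0 and 0.179 GeTMM (median 0) in ISF at that time.

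**Figure D4:**
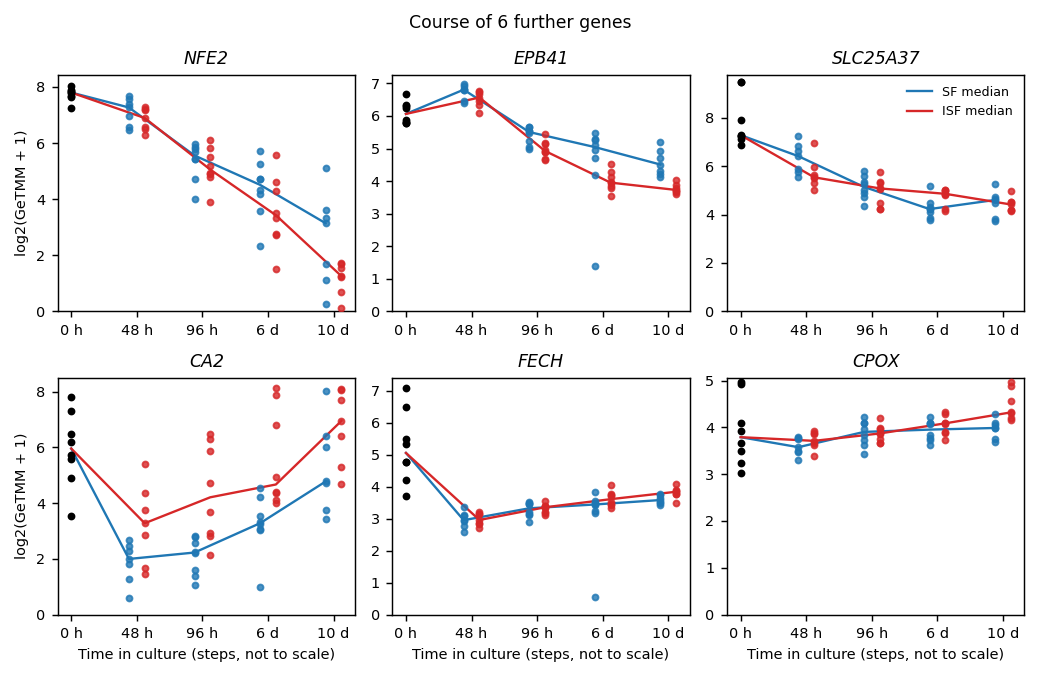
Level of 6 further genes as log2(GeTMM + 1), with 1 point per library and lines through the medians of SF (blue) and ISF (red), from the shared fresh libraries (black). The medians of NFE2 are lower and those of CA2 higher at each time after 48 hours, and the low SF points of EPB41, CA2 and FECH at 6 days are the library of Moon.

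The fluids differed in few of these genes, and genes near 0 in both fluids could hardly be called. At 48 hours 0 of 33 passed by limma, where 0.81% of all genes tested were lower in ISF and 0.872% higher. By unadjusted p under 0.05 there were 3, all lower in ISF, and voom and the fit with horse as a block called 0. Within horses, SLC25A37, ANK1, EPB42, DMTN and KEL were lower in ISF in 7 of 7 at 48 hours, with median ratios of 0.234 (ANK1) to 0.723 (SLC25A37). The lowest ratio of KEL was 0, where ISF had no read of it. The share of all genes tested with the same direction in every horse was not counted, here or at later times. The log2 differences of the 10 membrane genes ranged from -0.55 to -0.13, and none passed. At 96 hours CA2 was the 1 gene called, higher in ISF (2.29 ± 0.66, FDR = 0.0157, background 6.16%), and 0 were lower (4.3%), with none at an unadjusted p under 0.05 and 0 by voom. CA2 was higher in ISF in 8 of 8 horses, by ratios of 1.66 to 14.7 (median 8.902). Counts and ratios by horse at 96 hours pair libraries by label. The ISF libraries labelled Dealings and Dreamer each lay nearest to the other horse, so their pairs may mix animals. With both left out of the fit, CA2 was at 2.48 (FDR = 0.0226). The call was lost with voom (FDR = 0.124), without Dealings (FDR = 0.0543) and without Lurie (FDR = 0.061). EPB41 was lower in ISF at -0.42 and passed without the 6 day SF library of Moon (FDR = 0.044), without Moon (FDR = 0.0414) and with only the groups compared (FDR = 0.0313), where GATA1 and SPTB passed as well. KLF1, SPTB and ANK1 were lower in ISF in 8 of 8 horses at 96 hours, without passing in the fit over all libraries. The lowest ratio of ANK1 was 0, where ISF had no read of it.

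At 6 days 1 gene was higher in ISF (background 16.7%) and 2 were lower (13.6%), shares below the background in both directions. Genes near 0 in both fluids could hardly be called, and TSPO2 had no read in either. These shares therefore do not show that the fluids acted alike. CA2 was higher at 2.34 ± 0.66 (FDR = 0.00457) and in 8 of 8 horses, by ratios of 1.65 to 20.04 (median 8.01), and was at 2.02 (FDR = 0.0141) without the SF library of Moon. The summed macrophage genes at 6 days, not split by gene here, were between 20627 and 99905 GeTMM (median 37453) in SF and between 14661 and 100396 GeTMM (median 58758) in ISF, and their part in the CA2 difference was not tested. DMTN was lower in ISF in 8 of 8 horses, between 0.142 and 2.31 GeTMM (median 0.482) there and between 0.421 and 4.51 GeTMM (median 3.07) in SF (-1.10 ± 0.38, FDR = 0.0203), which was at -1.02 (FDR = 0.0343) without the SF library of Moon and lost its call without Dealings (FDR = 0.0883). The 5 fibroblast or stromal genes summed to between 0.165 and 181 GeTMM (median 4.59) in SF and between 0 and 68.1 GeTMM (median 1.15) in ISF at 6 days, with 0 of 5 called. All 5 T cell genes were lower in ISF at 6 days, with sums between 28.6 and 228 GeTMM (median 129) in SF and between 8.57 and 47.3 GeTMM (median 32.4) in ISF, as were 5 of 6 neutrophil precursor genes, with sums between 89.4 and 4799 GeTMM (median 1613) and between 2.76 and 2393 GeTMM (median 192), and 3 of 6 megakaryocyte and platelet genes. Their part in the values at 6 days was not tested. SLC25A38 was lower in 7 of 8 horses, between 5.38 and 10.2 GeTMM (median 8.899) there and between 8.29 and 14.8 GeTMM (median 10.6) in SF (-0.36 ± 0.13, FDR = 0.0294), a call lost without the SF library of Moon (-0.31, FDR = 0.0621), with only the groups compared (FDR = 0.115) and without Catnip, Dealings, Flash, Moon or Ollie (FDR = 0.0516 to 0.095). EPB41 was between 10.7 and 21.9 GeTMM (median 14.5) in ISF and between 1.65 and 43.7 GeTMM (median 32.04) in SF, with -0.55 ± 0.26 (FDR = 0.103). Without that library of Moon, where EPB41 was at 1.65 GeTMM, it passed as lower in ISF (FDR = 7.37e-07).

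At 10 days 2 genes were lower in ISF (background 10.8%) and 1 was higher (9.95%). EPB41 was lower in 7 of 7 horses, and NFE2 was lower in 5 of 7. EPB41 was between 11.04 and 15.4 GeTMM (median 12.2) in ISF and between 16.3 and 35.9 GeTMM (median 21.8) in SF, with -0.81 ± 0.28 (FDR = 0.0305) and no overlap, and lost its call without Catnip, Dealings, Dreamer, Ollie or RimRun (FDR = 0.0552 to 0.115). With the 6 day SF library of Moon left out of the fit, the same difference had FDR = 9.28e-05. NFE2 was between 0.0813 and 2.32 GeTMM (median 1.39) in ISF and between 0.188 and 33.2 GeTMM (median 7.81) in SF (-1.42 ± 0.47, FDR = 0.0214), and lost its call with voom (FDR = 0.122), with only the groups compared (FDR = 0.116) and without Catnip, Moon or Ollie (FDR = 0.0536 to 0.127). CPOX was higher in ISF in 7 of 7 horses, by ratios of 1.03 to 1.93 (median 1.51), with 0.50 ± 0.17 (FDR = 0.0308) and a call lost with voom (FDR = 0.189) and without Catnip, Dealings, Lurie, Ollie or RimRun (FDR = 0.051 to 0.119). CA2 was higher in 6 of 7 horses, by ratios of 0.984 to 16.6 (median 2.58), and did not pass at 1.44 ± 0.70 (FDR = 0.14), but passed with horse as a block (FDR = 0.0328). EPB42 was lower and TMCC2 higher in ISF in 7 of 7 horses without passing in the fit over all libraries. The median ratio of EPB42 was 0, so in most horses ISF had no read of it. All 3 calls were lost without Catnip or without Ollie. The erythroid genes SLC4A1, RHAG and KEL were at 0 in both fluids, so no difference could be called for them.

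Other cell markers differed between the fluids at 10 days too. All 5 T cell genes were lower in ISF, with sums between 23.5 and 199 GeTMM (median 103) in SF and between 4.33 and 14.8 GeTMM (median 7.61) in ISF, which did not overlap. All 5 fibroblast or stromal genes were lower, with sums between 0.406 and 4038 GeTMM (median 27.6) in SF and between 0.123 and 49.2 GeTMM (median 0.5262) in ISF, and 3 of 6 neutrophil precursor genes were lower, with the sums given above. Their part in the differences of EPB41, NFE2 and CPOX was not tested.

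Whether the change from 48 hours to 10 days differed between the fluids was tested with an interaction term. None of the 33 genes passed by limma (0 lower and 0 higher, background 1.41% and 1.59%). At an unadjusted p under 0.05 there was 1, higher in ISF, and voom called 0. The differences were -1.14 ± 0.66 (FDR = 0.402) for NFE2, -0.58 ± 0.39 (FDR = 0.51) for EPB41, 0.07 ± 0.99 (FDR = 0.987) for CA2 and 1.20 ± 0.53 (FDR = 0.23) for TMCC2. With standard errors of this size, the missed threshold does not show that the fluids acted alike.

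**Figure D5:**
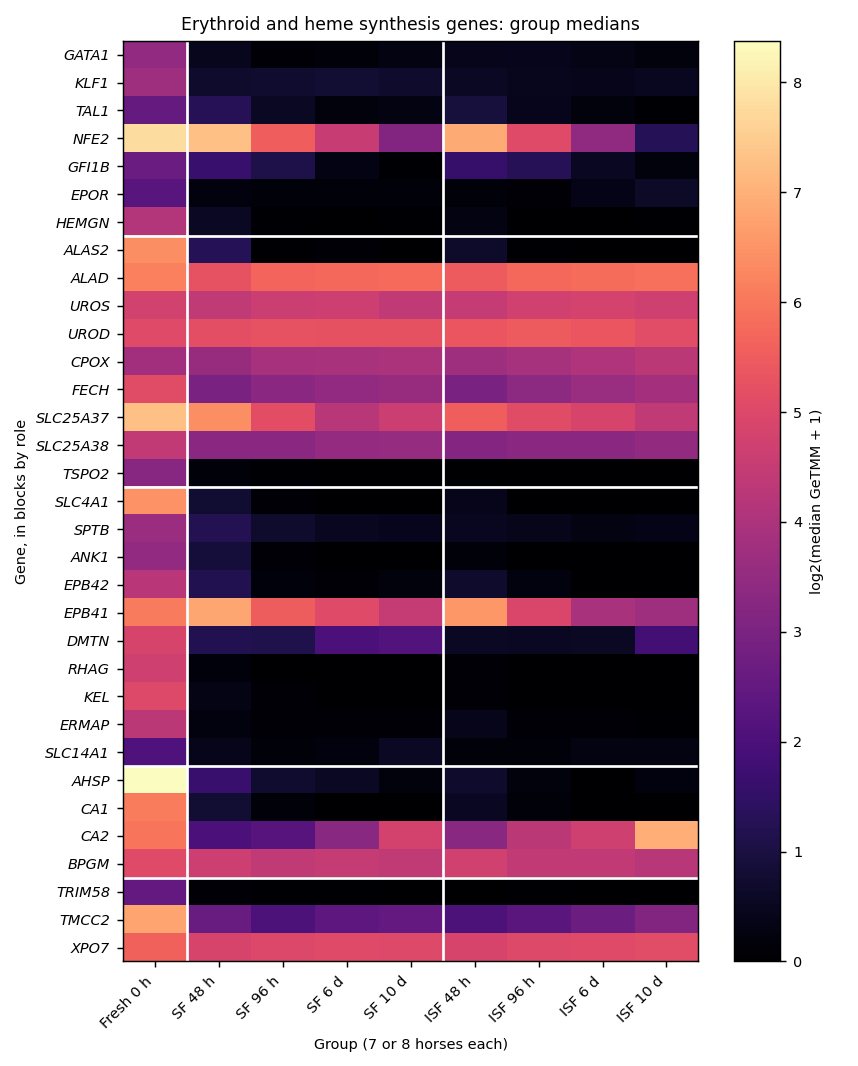
Median level of the 33 genes in the 9 groups as log2(GeTMM + 1), in blocks by role from top to bottom (factors and receptor, heme synthesis and carriers, membrane and skeleton, chaperone and enzymes, late maturation). The erythroid genes are bright in the fresh column and dark in the culture columns, UROD and CPOX are nearly even across all columns, and CA2 is brighter at 10 days than at 48 hours.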

How the data were processed

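RNA of uncultured and cultured BMNC was sequenced as stranded paired-end libraries. The authors trimmed reads with TrimGalore, counted them per gene with STAR 2.7.2a on EquCab3.0 with the Ensembl annotation, and deposited the values as GeTMM, an RPKM-like unit of reads per kilobase scaled with edgeR's TMM factors. The submitters' processing notes also name STAR and edgeR. The deposited table lists 30371 entries, of which 13157 have no symbol and 24065 are above 0 in some library. No raw counts were used as deposited. Whole reads and gene lengths were recovered from the steps between values, which gave whole lengths for 24065 of 24065 genes.

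Samples were grouped by fluid and time as labelled. Values were analysed as log2(GeTMM + 1) with limma, for the 14570 genes that reached 0.5 GeTMM in 7 or more libraries. All 68 libraries and 9 groups entered a single fit with no horse term. P-values were adjusted by the Benjamini-Hochberg method over all genes tested, with a threshold of 0.05 (R 4.3.3, limma 3.58.1, Python 3.11.15). Cells of 1 horse gave several libraries, so the horse pairs samples across groups. Same-horse deviations from the group means correlated at a median r of 0.263 (258 pairs), against -0.046 for different horses (2020 pairs), and a fit with horse as a block is an alternative. Other alternatives were a pseudocount of 0.1, no filter, only the groups compared, limma voom on recovered reads, rescaling, a fold minimum, leaving out each horse and leaving out libraries that stand apart. The scripts were tested on simulated data. Depth sets the precision of low values, and reads without molecular identifiers give counting error only.

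The 35 genes and all lists were chosen with earlier results of these data known. Genes given in full were picked within each role by size of change at 48 hours, at most 4 per role, with those that rose or were called between fluids, and other genes by range or in part. ALAS1 was named outside this rule, for its role. Groups named by cell type are lists of marker genes. Some genes of the further lists are counted but not reported by name here. No sequences, gene positions or promoter motifs are reported.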

Additional observations from a re-analysis of the deposited data

Results flagged for a closer look

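A library far from the others of its group was looked for in 212 sets of 7 or 8 libraries, 1 gene in 1 group each, by Dixon's test, and 19 gene values stood apart, where chance gives about 1 in 20. In 10 of them the library was that of Moon in SF at 6 days. There ALAD (109.8 GeTMM), UROS (55.4), UROD (128), AHSP (10.8), KEL (1.24) and ALAS2 (0.654) were highest. FECH (0.478), EPB41 (1.65), CA2 (1.00) and XPO7 (17.2) were lowest in it. The other 7 SF libraries at 6 days held UROD between 31.3 and 49.1 GeTMM, FECH between 7.98 and 13.1 and AHSP between 0 and 0.677.

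In Ollie, TMCC2 (9.95) and HEMGN (0.992) were highest in ISF at 48 hours, XPO7 (33.5) was highest in SF at 48 hours and SLC14A1 (1.53) was highest in SF at 10 days. In Lurie, EPOR (1.64) was highest in SF and GFI1B (0.636) in ISF at 10 days. ALAD (87.4) in RimRun was highest in ISF at 6 days, where TMCC2 (1.68) in Flash was lowest, and SLC14A1 (0.825) in Dreamer was highest in SF at 96 hours. The causes of these values were not tested.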

How the results depend on the processing

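All counts are of the 33 genes called by limma. From 0 to 48 hours 25 to 31 were called in ISF and 27 to 30 in SF, and from 0 hours to 10 days 27 to 30 and 26 to 30, over all alternatives run. Counts in the shorter intervals and between the fluids moved more. From 48 to 96 hours in ISF (2 genes) a pseudocount of 0.1 gave 7, horse as a block 4, only the groups compared 7 and voom 5. In SF (8 genes) only the groups compared gave 14, and leaving out a horse gave 3 to 10. From 96 hours to 6 days in ISF (2 genes) only the groups compared gave 1, a log2 fold change of at least 1 gave 1, and leaving out a horse gave 0 to 2. In SF (0 genes) horse as a block gave 2. From 6 to 10 days in ISF (1 gene) voom gave 2, leaving out the SF library of Moon at 6 days 2, and leaving out a horse 1 to 3, with 3 without Moon. In SF (1 gene) horse as a block gave 2, only the groups compared 0, leaving out the SF library of Moon 0, and leaving out a horse 0 to 1. Between the fluids at 96 hours (1 gene) only the groups compared gave 4, voom 0, leaving out the SF library of Moon at 6 days 2, and leaving out a horse 0 to 2. At 6 days (3 genes) leaving out a horse gave 1 to 3, with 1 without Dealings. At 10 days (3 genes) voom gave 1, a log2 fold change of at least 1 gave 1, and leaving out a horse gave 0 to 3, with 1 without Dealings or RimRun. No gene changed direction with a call under any alternative run. With horse as a block (the pairing of samples by labelled animal), SLC25A37 (FDR = 0.027) and AHSP (FDR = 0.0471) also fell from 48 to 96 hours in ISF. In SF ANK1 (FDR = 0.0417) and TAL1 (FDR = 0.0463) did. Beside these and the values given with the genes, the block changed no call. Rescaling moved the median of all genes by at most 0.044 on the log2 scale. The cause of these differences was not tested. Values under about 0.1 GeTMM rest on a few reads, so differences among them were not detectable at this depth.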
